A study of Mus musculus with 16 samples.

Results

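Claudins are the membrane proteins that form the strands of the tight junction between neighbouring epithelial cells, and the claudins a tubule cell makes set which ions and how much water pass between cells in that stretch of the nephron. The 9 claudins described here were chosen by name, from those described in the nephron, with earlier results of these data known. They are Cldn1, Cldn2, Cldn3, Cldn4, Cldn7, Cldn8, Cldn10, Cldn16 and Cldn19. All 9 were found on the array, among 19938 genes tested, and each gene is given by its brightest row. Only Cldn10 had more than 1 usable row.

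The kidney lays these proteins out in order. Cldn2 forms pores for cations and water in the proximal tubule and the thin descending limb. Cldn10 is made in forms that carry anions in the proximal tubule or cations in the thick ascending limb, and Cldn16 and Cldn19 act together in the thick ascending limb, where their loss in people wastes magnesium and calcium. Cldn3, Cldn4, Cldn7 and Cldn8 belong mainly to the distal nephron and collecting duct, where Cldn3 tightens the seal and Cldn4 and Cldn8 take part in chloride passage. Cldn1 is a general barrier claudin found in the parietal cells of Bowman's capsule.

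The arrays held kidney RNA of mice in 4 groups. Every mouse came from a line that loses Vhl in its tubule cells once doxycycline is given, through a driver based on Pax8. Vhl encodes the von Hippel-Lindau protein that marks hypoxia-inducible factors (HIF) for breakdown. Control mice (n = 3) received nothing. VHL-KO mice (n = 3) were dosed under the skin with doxycycline (0.1 mg for each 10 g) 4 days beforehand. AKI mice (n = 5) had 0.05 ml of 50% glycerol for each 10 g put into a left hind limb muscle, which breaks down muscle and injures the kidney, and went without drinking water from 20 h before to 24 h after it. VHL-KO/AKI mice (n = 5) received both treatments. Mice not given doxycycline carry the genotype label wt. Both sexes were used at 24 to 31 g; the sources used here give no age, strain background or sex of an animal. Doxycycline without the deletion and water withdrawal without glycerol were not among the groups.

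Promoter letters are shown first for the claudins with the largest falls and rises after injury, because the study concerns HIF, whose core letters are ACGTG or, with a different first base, GCGTG, and because Cldn3 and Cldn4, which both rose, are neighbours on chromosome 5. RefSeq windows (build GRCm38.p6) of 250 bases before the start were found for 8 of the 9 members, as 11 windows. Capitals mark a match to 1 of 3 sets of letters, searched on both strands, which do not overlap here. The first is the AP-1 element TGACTCA (read from the other strand as TGAGTCA), bound by a factor of the early stress response. The others are the HIF cores, which from the other strand begin with CAC (CACGT in the Cldn3 window).

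Cldn3, chr5:134985964-134986213, plus strand: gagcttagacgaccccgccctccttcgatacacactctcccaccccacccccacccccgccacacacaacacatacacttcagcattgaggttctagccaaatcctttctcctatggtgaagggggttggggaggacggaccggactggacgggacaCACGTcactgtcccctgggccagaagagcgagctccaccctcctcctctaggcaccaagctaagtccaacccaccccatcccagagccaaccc
Cldn4, chr5:134946935-134947184, minus strand: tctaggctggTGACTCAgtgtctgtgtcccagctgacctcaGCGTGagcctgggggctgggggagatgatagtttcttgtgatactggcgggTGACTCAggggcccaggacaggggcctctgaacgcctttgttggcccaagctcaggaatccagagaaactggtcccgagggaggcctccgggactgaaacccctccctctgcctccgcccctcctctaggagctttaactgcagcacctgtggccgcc
Cldn10 upstream start, chr14:118787621-118787870, plus strand: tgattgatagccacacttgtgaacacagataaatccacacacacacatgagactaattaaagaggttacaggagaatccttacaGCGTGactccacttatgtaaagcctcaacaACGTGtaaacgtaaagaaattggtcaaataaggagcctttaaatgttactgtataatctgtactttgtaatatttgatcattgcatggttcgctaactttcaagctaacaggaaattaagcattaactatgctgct
Cldn10 downstream start, chr14:118854700-118854949, plus strand: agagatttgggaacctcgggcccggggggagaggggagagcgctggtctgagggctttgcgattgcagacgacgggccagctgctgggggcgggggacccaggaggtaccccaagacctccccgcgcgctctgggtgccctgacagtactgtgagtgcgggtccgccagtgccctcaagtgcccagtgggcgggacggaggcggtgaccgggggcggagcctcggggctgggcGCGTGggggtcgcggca

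The Cldn4 window held TGACTCA at 240 and 158 bases before the start, and GCGTG at 209 bases. At least 1 copy of TGACTCA was in 4.46% of the 32851 windows of the same length, and at least 2 copies in 0.167%. No other member window held those letters. Of the 11 member windows, 2 held ACGTG (Cldn3 and Cldn10), beside 16.6% of all windows, and 5 held GCGTG (Cldn4, and both windows each of Cldn7 and Cldn10), beside 28.2% of all windows. A match says only that the letters are there.

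The arrays differed in ways that touch the results. The Y-linked mean (Uty, Eif2s3y and Kdm5d) was 7.77 to 8.26 on the log2 scale in the 10 injured mice and 4.81 to 5.01 in the uninjured ones other than Control 3, which stood at 7.43 while its Xist, the transcript of the inactive X, was 10.23. Xist was 10.23 to 11.47 in the 6 uninjured mice and 4.16 to 5.08 in the injured ones. Injury and the sex-linked signal therefore cannot be told apart in comparisons of injured with uninjured kidneys, whereas AKI and VHL-KO/AKI carried the same signal. On the first principal component (57.1% of the variance) AKI 4 lay at 5.76, against 36.48 to 42.79 for the other AKI arrays and -41.87 to -33.94 for uninjured kidneys, and it correlated less with the other AKI arrays (mean r = 0.973) than these did among their group (0.988 to 0.989). Vhl, the deleted gene, was 7.06 ± 0.04 (SD, n = 3) in control, 6.65 ± 0.04 (n = 3) in VHL-KO, 7.16 ± 0.12 (n = 5) in AKI and 6.50 ± 0.12 (n = 5) in VHL-KO/AKI. It fell by 0.67 (SE 0.0674, limma adjusted p = 9.98e-05) in VHL-KO/AKI against AKI, and was lower by a log2 difference of -0.40 (adjusted p = 0.0565) in VHL-KO against control, which did not pass.

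Glycerol injury was accompanied by opposite changes among the claudins. Against control, Cldn3, Cldn4 and Cldn7 rose, Cldn2, Cldn8, Cldn10, Cldn16 and Cldn19 fell, and Cldn1 did not pass the test (limma, adjusted p under 0.05 over all genes). Called genes made up 28.1% of all genes in this comparison, 13.2% higher and 14.9% lower, against 8 of 9 claudins. The claudins were chosen with earlier results known, and all 9 had control means above the lowest array median (5.92). These shares are therefore no test of the set. The claudins' median log2 difference was -0.55, and that of all genes was 0.02. In whole kidney, fewer cells of a type and less RNA per cell cannot be told apart. All 8 called claudins had groups that did not overlap, as did 27.3% of all genes. Without Control 3 and AKI 4 together, 8 claudins were again called, with Cldn1 in place of Cldn7. A fit that also took the sex-linked level as a term called 0 of the 9 claudins and 0 of all genes; within a group that level differed widely only in control, through Control 3.

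**Figure D1:**
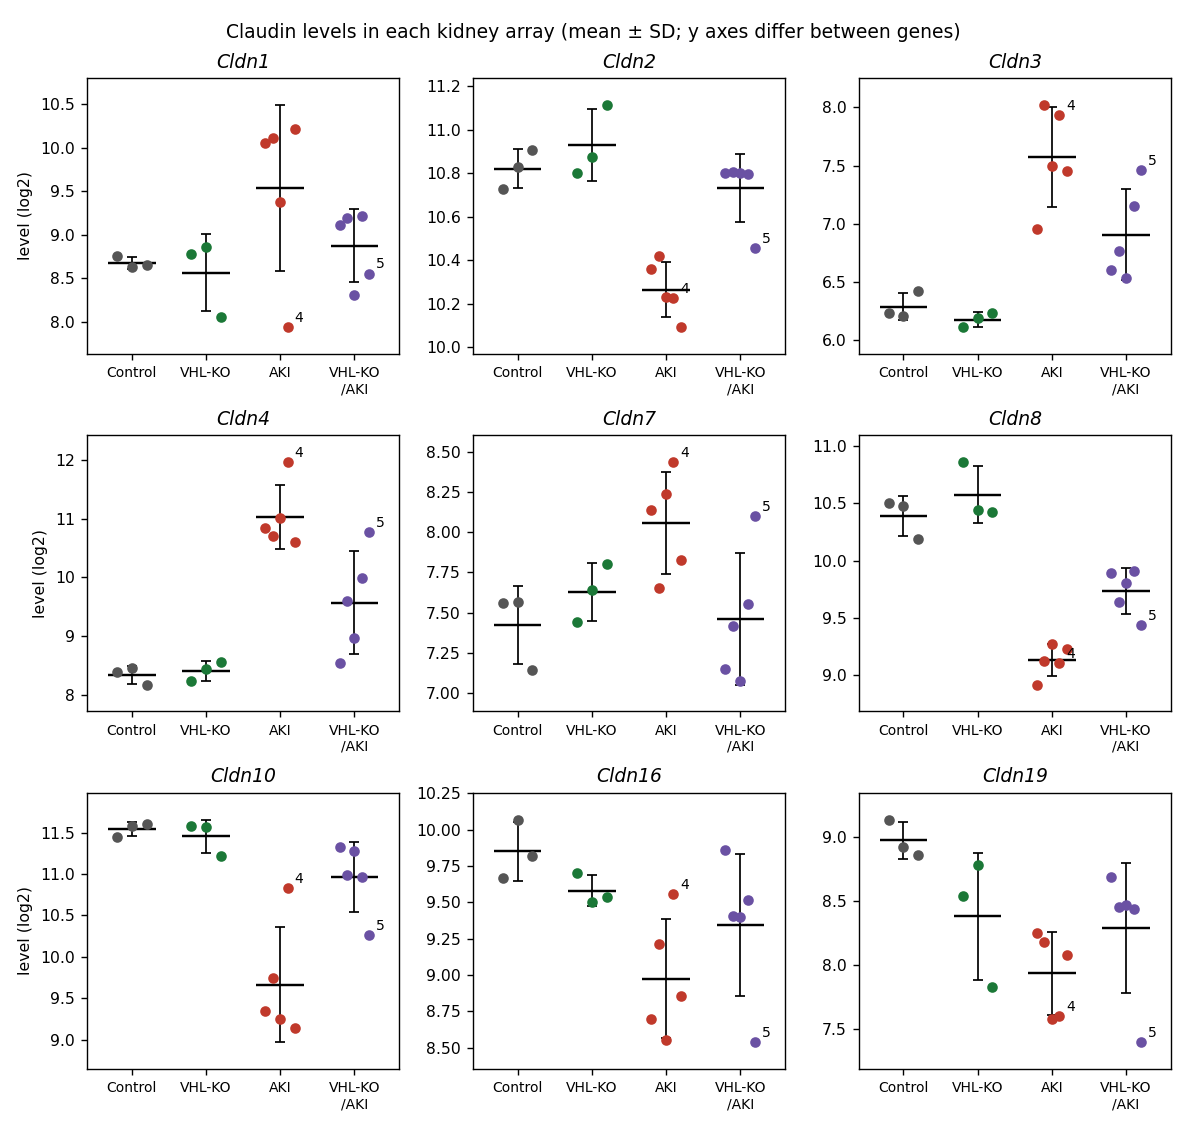
Level of each claudin (log2) in each array, by group. Points are arrays, bars are the group mean ± SD, the digits 4 and 5 mark AKI 4 and VHL-KO/AKI 5, and each panel has its own y axis. Cldn4 was 10.61 to 11.97 in the AKI arrays and at most 8.55 in uninjured ones, while Cldn8 and Cldn10 were lower in every AKI array than in every uninjured one.

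Among the barrier claudins the change was greatest in Cldn4. Its log2 level was 8.38, 8.46 and 8.17 in the control arrays and 10.85, 10.70, 11.01, 11.97 and 10.61 in the AKI arrays. The groups were far apart, and AKI 4 was the highest array. The mean went from 8.34 ± 0.15 (SD, n = 3) to 11.03 ± 0.55 (n = 5), a rise of 2.69 (SE 0.399), which is 6.46-fold (adjusted p = 0.000216). By size of difference it stood 43rd from the top of all genes tested.

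Cldn3, whose gene is the direct neighbour of Cldn4 on chromosome 5, rose as well. It was 6.23, 6.21 and 6.42 in control and 6.96, 8.02, 7.50, 7.94 and 7.45 in AKI. No AKI array reached down to the control range, and AKI 1 was the nearest to it. The rise was 1.29 (SE 0.227), or 2.44-fold (adjusted p = 0.000736).

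Cldn7, a barrier claudin of the distal nephron, moved least of the called ones that rose. Its control arrays read 7.56, 7.57 and 7.14 and its AKI arrays 8.14, 7.65, 8.24, 8.44 and 7.83. The groups did not overlap, but AKI 2 lay just above the highest control. The rise was 0.63 (SE 0.216), or 1.55-fold (adjusted p = 0.039). This call was lost on leaving out any 1 control array (adjusted p = 0.0652, 0.0615 and 0.169 without Control 1, 2 and 3), AKI 1 (0.0686), AKI 3 (0.0782), AKI 4 (0.0641) or VHL-KO/AKI 2 (0.0503), and with the replicate number as a block (0.164).

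Cldn1 split the AKI arrays. It was 8.76, 8.63 and 8.65 in control and 10.05, 10.11, 9.38, 7.94 and 10.22 in AKI. AKI 4 lay below every control, and the other AKI arrays lay above all of them. The log2 difference over all arrays was 0.86 (95% interval -0.03 to 1.75, adjusted p = 0.143). Without AKI 4 it was 1.26 (adjusted p = 0.00118).

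Cldn8, the barrier partner of Cldn4 in the collecting duct, changed in the opposite direction to Cldn4. It was 10.51, 10.48 and 10.19 in control and 8.92, 9.13, 9.28, 9.11 and 9.23 in AKI. The AKI arrays kept close together, AKI 4 included, and all lay below the controls. Cldn8 fell by 1.26 (SE 0.129), or 2.39-fold (adjusted p = 1.55e-05), the smallest adjusted p of the 9.

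Among the pore-forming claudins, Cldn10 fell furthest. Its control arrays read 11.45, 11.58 and 11.60 and its AKI arrays 9.35, 9.74, 9.26, 10.83 and 9.14. Every AKI array was below every control, with AKI 4 nearest to them. The mean fell by 1.88 (SE 0.316), or 3.68-fold (adjusted p = 0.000534). A second Cldn10 row gave a log2 difference of -1.98 (adjusted p = 0.00047). Both rows list the same transcripts, so the proximal and thick limb forms are not separated, and a further row shared with the neighbouring gene Dzip1 was not used.

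Cldn2, the cation and water pore of the proximal tubule and the only member on the X chromosome, changed less. It was 10.73, 10.83 and 10.91 in control and 10.36, 10.42, 10.23, 10.23 and 10.09 in AKI. The groups did not overlap, and AKI 4 lay among the other AKI arrays. Cldn2 fell by 0.55 (SE 0.0997), or 1.47-fold (adjusted p = 0.000852).

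The thick limb partners Cldn16 and Cldn19 both fell. Cldn16 was 9.67, 10.07 and 9.82 in control and 8.70, 9.21, 8.55, 9.56 and 8.86 in AKI, a fall of 0.88 (SE 0.252, 1.84-fold, adjusted p = 0.0169). Cldn19 was 9.14, 8.92 and 8.86 in control and 8.25, 8.18, 7.58, 7.60 and 8.08 in AKI, a fall of 1.04 (SE 0.27, 2.05-fold, adjusted p = 0.00943). Neither gene's groups overlapped, and AKI 4 was the nearest AKI array to control for Cldn16 but among the lowest for Cldn19. The Cldn16 call was lost without Control 2 (log2 difference -0.77, adjusted p = 0.079).

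Segment markers fell over the same arrays, in which 14.9% of all genes were called lower and 13.2% higher. Thick ascending limb genes, the site of Cldn10, Cldn16 and Cldn19, fell in 7 of 8 measured, with a median log2 difference of -2.35. Their mean log2 level was 10.53 to 10.87 in control and 7.87 to 9.67 in AKI, where AKI 4 was the highest at 9.67. Collecting duct principal cell genes, the site of Cldn4 and Cldn8, fell in 6 of 10 (median -0.83), from means of 9.23 to 9.59 to means of 8.48 to 8.94. Distal convoluted and connecting tubule genes fell in 6 of 8 (median -1.39) and intercalated cell genes in 6 of 7 (median -1.37). Proximal tubule genes, the site of Cldn2, fell in 10 of 13 (median -1.22). Urothelium, another tissue that makes Cldn4, had 1 of 7 markers called (median -0.07), close to the share of all genes called higher. That marker, Krt5, a basal keratin, rose by 0.83 (limma adjusted p = 0.0485). The urothelial list mean was 6.09 to 6.21 in control and 5.90 to 6.42 in AKI. The part of these cell types in the claudin results was not tested.

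**Figure D2:**
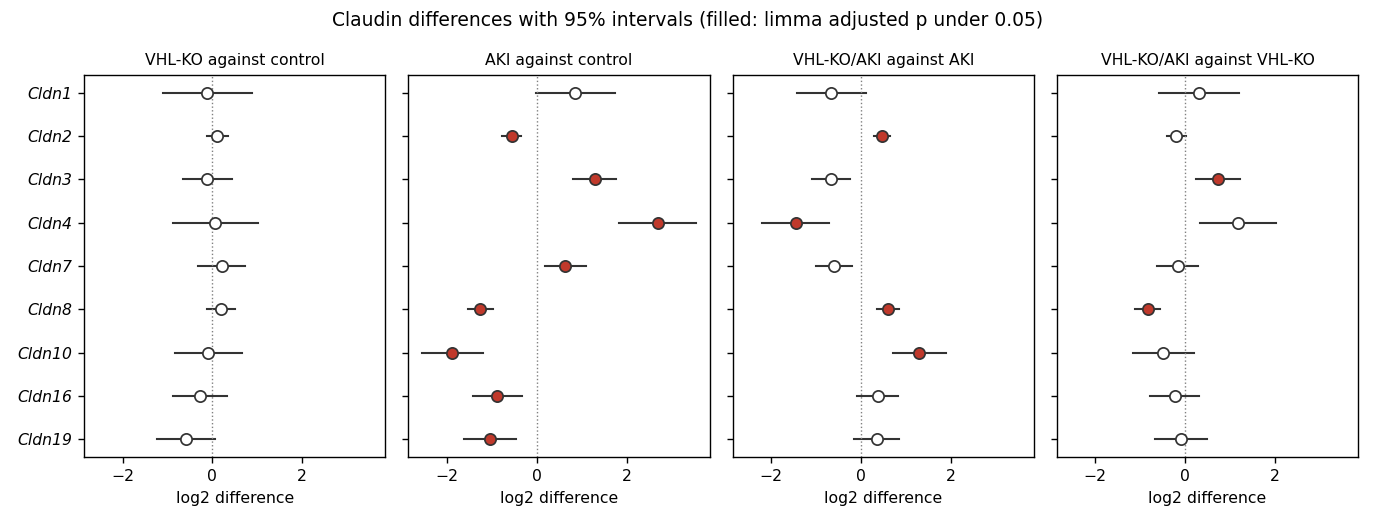
Log2 difference of each claudin in 4 comparisons, with 95% intervals from the limma fit over all 16 arrays. Filled points passed the adjusted p threshold of 0.05. No point is filled for VHL-KO against control, 8 are filled for AKI against control, 4 in the third panel and 2 in the fourth, where VHL-KO/AKI is set against VHL-KO.

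Deletion of Vhl alone left the claudins without a called change. In VHL-KO against control 0 of 9 passed (limma), and 0 had an unadjusted p under 0.05 (1664 of all genes had), beside 0.527% of all genes called. The log2 differences ran from -0.59 to 0.20, with a median of -0.09 against 0.02 for all genes. This comparison shares its control arrays with the one above. Its groups were not matched in the sex-linked signal, because Control 3 had a Y-linked mean of 7.43, against 4.81 to 4.88 in VHL-KO.

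Cldn19 had the greatest difference in size. It was 8.54, 8.78 and 7.83 in VHL-KO, with VHL-KO 3 well below the other two. All lay below the lowest control (8.86). In 5.33% of all genes the VHL-KO arrays likewise lay below every control. The log2 difference was -0.59 (95% interval -1.23 to 0.05, adjusted p = 0.649).

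The intervals for the other members were of unequal width. Cldn2 differed by 0.11 (-0.13 to 0.35) and Cldn8 by 0.19 (-0.12 to 0.49), whereas Cldn4 differed by 0.06 (-0.89 to 1.02), Cldn10 by -0.09 (-0.84 to 0.67) and Cldn1 by -0.12 (-1.11 to 0.88). The sign for Cldn4 was negative under quantile scaling (-0.024). Changes of close to 2-fold in either direction thus lay within the Cldn4 and Cldn1 intervals, and those genes cannot be called unchanged. VHL-KO 3 was the lowest array of that group for Cldn1 (8.05, against 8.78 and 8.86) and for Cldn10 (11.22, against 11.57 and 11.57).

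In injured kidneys the deletion went with higher Cldn2, Cldn8 and Cldn10 and lower Cldn4. VHL-KO/AKI against AKI called 4 of 9 claudins, 3 higher and 1 lower, against 3.88% of all genes (2.48% higher, 1.4% lower). The median log2 difference was 0.35, against -0.01 for all genes. Without Control 3 and AKI 4 together, 5 were called, 3 higher and 2 lower. The comparison shares the AKI arrays with AKI against control, so opposite signs in the pair are partly built in, and the levels are given beside those above.

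Cldn4 read 8.53, 9.59, 8.96, 9.99 and 10.78 in VHL-KO/AKI. These arrays spread over 2.25 log2 units: VHL-KO/AKI 1 lay within the uninjured range (8.17 to 8.55), VHL-KO/AKI 5 within the AKI range, and 3 lay between. The mean was 9.57 ± 0.88 (SD, n = 5), which is 1.46 below AKI (SE 0.345, a fall of 2.74-fold, adjusted p = 0.0327). By size of difference Cldn4 stood the fifth from the bottom of all 19938 genes. The call was lost without AKI 1 (adjusted p = 0.0517), AKI 3 (0.074), AKI 5 (0.0508), VHL-KO/AKI 1 (0.0848), VHL-KO/AKI 2 (0.0749) or VHL-KO/AKI 3 (0.0989), and with only the compared groups in the fit (0.117).

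Cldn10 read 11.33, 10.99, 11.28, 10.97 and 10.26. VHL-KO/AKI 1 and 3 lay within the uninjured range (11.22 to 11.60), VHL-KO/AKI 5 lay below AKI 4, and the others lay between. The mean of 10.96 ± 0.43 (n = 5) was 1.30 higher than in AKI (SE 0.274, 2.46-fold, adjusted p = 0.0206), and the second row gave 1.33 (adjusted p = 0.0217). It stood 38th from the top of all genes. The call was lost without AKI 3 (0.0587), AKI 5 (0.0541), VHL-KO/AKI 1 (0.0645), VHL-KO/AKI 2 (0.0511) or VHL-KO/AKI 3 (0.0654), and with only the compared groups in the fit (0.085).

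Cldn2 and Cldn8 differed by less but with tighter arrays. Cldn2 read 10.80, 10.81, 10.80, 10.80 and 10.45 in VHL-KO/AKI, and 4 of these arrays lay within the uninjured range. It was 0.47 higher than in AKI (SE 0.0863, 1.38-fold, adjusted p = 0.0101). Cldn8 read 9.89, 9.64, 9.80, 9.91 and 9.44, and all of these arrays lay above every AKI array and below every uninjured one. It was 0.60 higher than in AKI (SE 0.112, 1.52-fold, adjusted p = 0.0101). For both genes every VHL-KO/AKI array was above every AKI array, as for 2.19% of all genes, and both calls held under each of the 28 alternatives, with adjusted p up to 0.035 for Cldn2 and 0.0356 for Cldn8.

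The other 5 did not pass. Cldn3 read 6.60, 6.77, 6.53, 7.15 and 7.46, a log2 difference of -0.67 from AKI (95% interval -1.09 to -0.25, adjusted p = 0.0719). Cldn7 read 7.15, 7.42, 7.08, 7.56 and 8.10, a difference of -0.60 (SE 0.187, adjusted p = 0.0896). In both genes VHL-KO/AKI 5 was the highest array, and without it the differences were -0.81 (adjusted p = 0.0165) and -0.76 (0.0109); Cldn3 also passed without AKI 1 (-0.83, 0.0292). Cldn1 read 9.11, 9.19, 8.30, 9.21 and 8.55, a difference of -0.67 (-1.43 to 0.10, adjusted p = 0.348), and without AKI 4 it was -1.07 (0.00749). All of its VHL-KO/AKI arrays were above AKI 4 and below the other AKI arrays. Cldn16 read 9.86, 9.41, 9.40, 9.51 and 8.54, a difference of 0.37 (-0.10 to 0.83). Cldn19 read 8.68, 8.45, 8.47, 8.44 and 7.40, a difference of 0.35 (-0.15 to 0.85). In both thick limb partners VHL-KO/AKI 5 was the lowest array of its group.

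Segment markers stood beside these differences, in a comparison that called 3.88% of all genes (2.48% higher, 1.4% lower). Thick ascending limb genes had a median log2 difference of 1.12, with 2 of 8 called: Kcnj1, the apical potassium channel, was higher by 1.28 (adjusted p = 0.0045), and Casr, the calcium-sensing receptor, by 1.08 (adjusted p = 0.0226). The list mean was 8.37 to 9.98 in VHL-KO/AKI. Of the collecting duct principal cell genes 2 of 10 were called, the sodium channel subunits Scnn1g (0.82 higher, adjusted p = 0.00464) and Scnn1b (0.40 higher, adjusted p = 0.0257), with a median of 0.36. Proximal tubule genes had 0 of 13 called (median 0.33), distal convoluted and connecting tubule genes 0 of 8 (median 0.34), and intercalated cell genes 1 of 7, Atp6v0d2, a proton pump subunit (0.39 higher, adjusted p = 0.03). Urothelial genes had 0 of 7 called (median 0.02), with a list mean of 5.81 to 6.41. Blood leukocyte genes had 2 of 6 lower (median -0.08), the neutrophil calcium-binding proteins S100a9 (log2 difference -1.07, limma adjusted p = 0.0104) and S100a8 (-0.55, adjusted p = 0.0496). S100a8 had group means below the lowest array median (5.92) in both groups. The leukocyte list mean was 5.60 to 6.28 in AKI and 5.47 to 5.72 in VHL-KO/AKI. Injured tubule genes had 0 of 6 called (median -0.35), with list means of 9.48 to 11.11 in AKI and 9.77 to 10.89 in VHL-KO/AKI. The part of these cell types in the claudin differences was not tested.

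Injured and uninjured kidneys with the deletion were compared next, and here too injury and the sex-linked signal cannot be told apart. The comparison called 2 of 9 claudins, beside 13.6% of all genes, and their median log2 difference was -0.17, against -0.01 for all genes. Cldn3 rose by 0.73 (SE 0.227, 1.66-fold, adjusted p = 0.0452) and Cldn8 fell by 0.84 (SE 0.129, 1.79-fold, adjusted p = 0.000785). VHL-KO arrays read 6.11, 6.18 and 6.23 for Cldn3 and 10.86, 10.44 and 10.42 for Cldn8, and neither gene's groups overlapped, as for 24.3% of all genes. The Cldn3 call was lost without any 1 control or VHL-KO array, without AKI 3, AKI 5, VHL-KO/AKI 2, VHL-KO/AKI 4 or VHL-KO/AKI 5, and with the replicate number as a block (adjusted p = 0.12). A fit with the sex-linked level as a term called 0 of the 9, and without Control 3 and AKI 4 together 3 were called.

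Cldn4 differed by 1.17 between these groups (95% interval 0.32 to 2.02, adjusted p = 0.0665), from 8.22, 8.43 and 8.55 in VHL-KO. VHL-KO/AKI 1 overlapped the VHL-KO arrays. It passed without AKI 4 (adjusted p = 0.0289), VHL-KO/AKI 1 (0.019) or VHL-KO/AKI 3 (0.0479). Cldn10 differed by -0.49 (-1.16 to 0.19), Cldn2 by -0.20 (-0.41 to 0.01), Cldn16 by -0.24 (-0.78 to 0.30) and Cldn19 by -0.09 (-0.67 to 0.48). Cldn1 (0.31) and Cldn7 (-0.17) had intervals that included 0. Of all genes, 13.6% were called in either direction. Thick ascending limb genes fell in 4 of 8 (median -1.16), distal convoluted and connecting tubule genes in 8 of 8 (median -1.24), collecting duct principal cell genes in 3 of 10 (median -0.37) and intercalated cell genes in 3 of 7 (median -0.95). Proximal tubule genes had 6 of 13 lower and 1 higher (median -0.79): Slc7a13, an amino acid transporter, was higher by 4.91 (adjusted p = 0.00784). The uninjured control arrays of Slc7a13 ran from 5.52 to 12.21, reaching past the VHL-KO/AKI arrays (9.75 to 11.28). Control 3, the control with a raised Y-linked mean, had the highest proximal tubule list mean of the controls (12.39, against 11.83 and 11.86). Injury and the sex-linked signal cannot be told apart for Slc7a13 either. The part of these cell types was not tested.

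Whether the knockout difference itself depended on injury was tested by the interaction. Injured and uninjured mice also differed in the sex-linked signal. Dependence on injury and dependence on that signal therefore cannot be told apart here. No claudin passed (0 of 9, limma), beside 0.01% of all genes (2 genes). An unadjusted p under 0.05 was reached by 6 of the 9, Cldn2, Cldn4, Cldn7, Cldn8, Cldn10 and Cldn19, and by 2387 of the 19938 genes. Cldn10 had 1.39 (95% interval 0.43 to 2.34, unadjusted p = 0.00733, adjusted p = 0.228) and Cldn4 had -1.52 (-2.72 to -0.32, unadjusted p = 0.0167, adjusted p = 0.299). Without AKI 4 the Cldn10 interaction was 1.68 and passed (adjusted p = 0.0186). The test does not show that the deletion acted differently in injured and uninjured kidneys.

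Over the 4 groups the means followed a few orders. Cldn10, Cldn16 and Cldn19 ran control, VHL-KO, VHL-KO/AKI, AKI from high to low, and Cldn2 and Cldn8 ran VHL-KO, control, VHL-KO/AKI, AKI. Cldn1 and Cldn3 ran AKI, VHL-KO/AKI, control, VHL-KO; Cldn4 ran AKI, VHL-KO/AKI, VHL-KO, control, and Cldn7 ran AKI, VHL-KO, VHL-KO/AKI, control. Neighbours in these orders did not overlap in Cldn2 (VHL-KO/AKI and AKI), Cldn3 (VHL-KO/AKI and control), Cldn8 (control and VHL-KO/AKI, VHL-KO/AKI and AKI) and Cldn19 (control and VHL-KO). All other neighbours overlapped in at least 1 array.

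**Figure D3:**
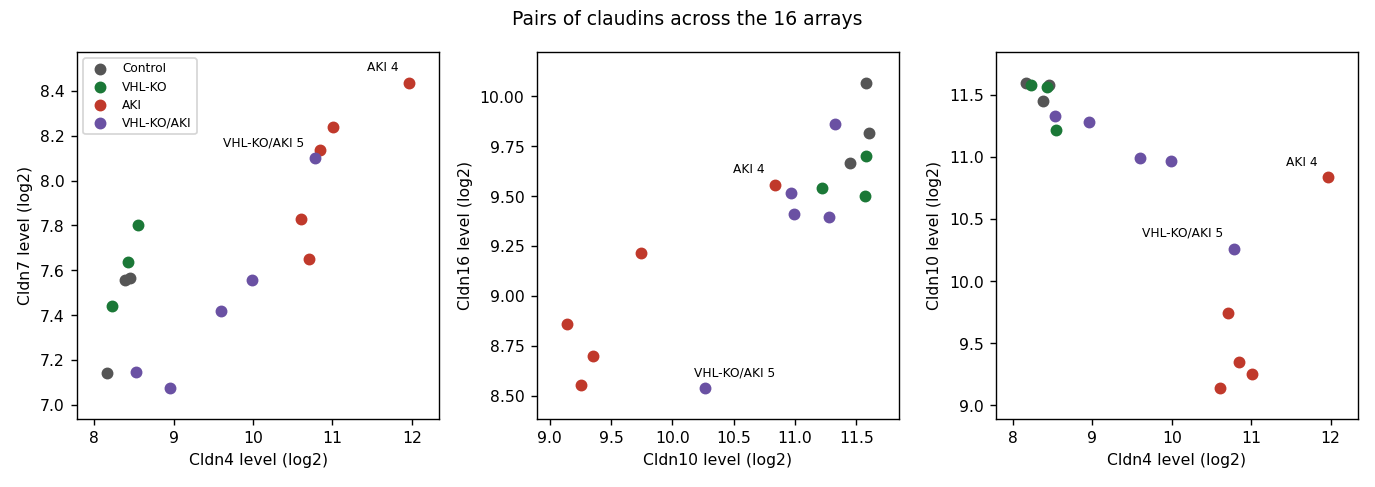
Levels (log2) of 3 pairs of claudins across the 16 arrays, coloured by group: Cldn4 with Cldn7, Cldn10 with Cldn16, and Cldn4 with Cldn10. AKI 4 is high in Cldn4 (11.97) without being low in Cldn10 (10.83), and VHL-KO/AKI 5 lies near the AKI arrays in Cldn4 and Cldn7.

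Single arrays departed from their group in several claudins at once. AKI 4 differed from the mean of the other AKI arrays by 1.17 in Cldn4, 1.46 in Cldn10, 0.73 in Cldn16, 0.47 in Cldn7, 0.45 in Cldn3, -0.42 in Cldn19 and -2.01 in Cldn1, and by -0.05 in Cldn2 and -0.03 in Cldn8. It thus had the highest Cldn4 and the lowest Cldn1 of the injured arrays while its Cldn10 was the highest of AKI. In its marker lists it had the highest proximal (12.06) and thick limb (9.67) means of AKI and the lowest mean of injured tubule genes such as Havcr1 and Lcn2 (9.48, against 10.80 to 11.11). Its distal, collecting duct and intercalated means were the highest of AKI too. So were its urothelium (6.42, with AKI 5 at 6.41), endothelium (8.91), adipose tissue (7.20) and adrenal gland (4.80) means. Every adrenal gene had group means below the lowest array median (5.92), where differences are hard to see. Its podocyte and blood leukocyte means lay within the range of the other AKI arrays. VHL-KO/AKI 5 had the highest Cldn3, Cldn4 and Cldn7 and the lowest Cldn2, Cldn8, Cldn10, Cldn16 and Cldn19 of its group. Its thick limb (8.37), proximal (10.86), distal (8.28), collecting duct (8.57) and intercalated (7.75) means were the lowest of the group. Its injured tubule (10.89), podocyte (7.07), endothelium (8.88) and adrenal gland (4.49) means were the highest. Its urothelium, adipose tissue and blood leukocyte means lay within the range of the other VHL-KO/AKI arrays. The part of these marker lists in the claudin levels was not tested.

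Some claudins varied together within groups as well as between them. These correlations are descriptions over the 16 arrays, which differ in injury and, with it, in the sex-linked signal. Cldn4 and Cldn7 had r = 0.789 over all arrays and 0.885 for deviations from the group means, and 0.871 without AKI 4. Cldn10 and Cldn16 had 0.867, 0.844 and 0.84 in the same order. The neighbouring genes Cldn3 and Cldn4 had 0.929, 0.671 and 0.623. Cldn1 and Cldn16, the other neighbouring pair among the members, lie on chromosome 16 and had -0.473, -0.183 and 0.285. Cldn4 and Cldn10 were inversely related over all arrays (r = -0.789), and within groups the value was -0.03 with AKI 4 and -0.616 without it. Cldn16 and Cldn19, which act as partners, had 0.711 over all arrays, 0.464 within groups and 0.668 within groups without AKI 4.

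Each claudin also had genes whose level followed it over the 16 arrays, named by the highest r and described without a test. Cldn4 was followed by Ets2, a transcription factor (r = 0.97, and 0.895 within groups), Rhbdf2 (0.968) and Klf3 (0.968). Cldn3 was followed by Cebpb (0.958), Rela (0.956), both transcription factors of the inflammatory response, and Zbtb42 (0.955). Cldn7 was followed by Med13l (0.939), Ptpn11 (0.937) and Chd7 (0.928), and Cldn1 by Rrp8 (0.926), Steap2 (0.917) and Rnf183 (0.911). Among the claudins that fell, Cldn10 was followed by Tmem174 (0.979, and 0.97 within groups), B3galt5 (0.977) and Smpd2 (0.972). Cldn16 was followed by Dhrs11 (0.966), Atp1b1, a sodium pump subunit (0.965, and 0.945 within groups), and Pter (0.955). Cldn8 was followed by Hpgd, which breaks down prostaglandins (0.965, but 0.612 within groups), Gnb5 (0.962) and Colgalt2 (0.962). Cldn2 was followed by AU040320 (0.947), Sgsh (0.93) and Thtpa (0.929), and Cldn19 by Frem1 (0.921), Dpy19l4 (0.897) and Rtn4rl1 (0.88). The genes nearest to Cldn10 and Cldn16 kept their likeness within groups, while those nearest to Cldn8 lost much of it.

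**Figure D4:**
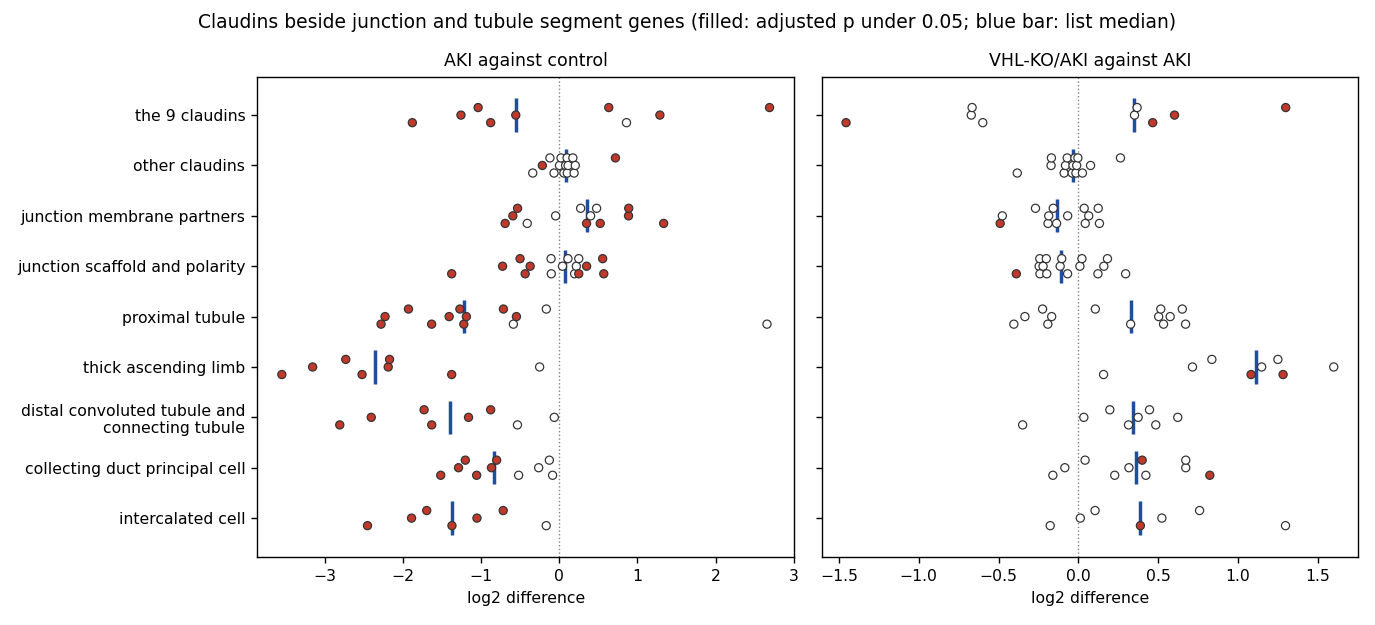
Log2 differences of the 9 claudins beside other claudins, junction genes and tubule segment genes, for AKI against control and VHL-KO/AKI against AKI. Each point is a gene, filled where the adjusted p was under 0.05, and the blue bar is the list median. The 9 claudins spread to both sides of 0, and the listed other claudins gather near 0. Of these, 2 of 15 (Cldn12 and Cldnd1) are filled in AKI against control, and Cldnd1 may not be the listed claudin.

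The array held 19 other claudins with a row of 1 symbol, and the list used here does not cover all of them. From that list 15 rows were measured, and 9 of them had a control mean below the lowest array median (5.92). None of the 9 members had, and a fall in those 9 listed rows could hardly be seen. Of the 15 rows 1 rose and 1 fell in AKI against control (median 0.08), beside 13.2% and 14.9% of all genes. Cldn12 fell by 0.21 (adjusted p = 0.0359). The row that rose, by 0.72 (adjusted p = 0.0112), is named Cldnd1; it was reached from the list entry Cldn25 through an alias that another gene also carries, so it may not be the listed claudin. In VHL-KO/AKI against AKI 0 of 15 were called, and against VHL-KO Cldn12 alone was called, with a fall of 0.27 (adjusted p = 0.0227).

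Other membrane proteins of the junction moved in both directions. Of 13 measured, 5 rose and 3 fell in AKI against control (median 0.35), beside 13.2% and 14.9% of all genes. Cxadr, the coxsackievirus and adenovirus receptor, rose by 1.34, and Lsr, which marks corners where 3 cells meet, and Jam2, an adhesion molecule, each rose by 0.89. Cdh16, the kidney-specific cadherin, fell by 0.69. In VHL-KO/AKI against AKI 1 of 13 was called, Cdh1 (E-cadherin), which fell by 0.49 (adjusted p = 0.0427). Against VHL-KO, 1 rose (Cxadr, 0.87) and 3 fell.

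The scaffold and polarity proteins that anchor claudins inside the cell were also split. Of 16 measured, 4 rose and 5 fell in AKI against control (median 0.08), beside 13.2% and 14.9% of all genes. The atypical protein kinases C of the polarity complex went opposite ways: Prkcz fell by 1.37 (adjusted p = 0.000161) and Prkci rose by 0.57 (adjusted p = 0.0229). Cgnl1 (paracingulin) fell by 0.72 and Pard6b rose by 0.56. In VHL-KO/AKI against AKI 1 of 16 was called, Pard6b, which fell by 0.39 (adjusted p = 0.0182), and against VHL-KO 3 fell.

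Among known regulators of claudins more fell than rose after injury. Of 21 measured, 2 rose and 10 fell in AKI against control (median -0.34), beside 13.2% and 14.9% of all genes. Casr, Klhl3 and Wnk4, all called lower, were also counted in the segment lists above. Casr, which controls thick limb claudins in response to calcium, fell by 2.19 (adjusted p = 5.8e-05). Kl, the FGF23 co-receptor, fell by 1.83, Klhl3, an adaptor that targets WNK kinases and Cldn8 for breakdown, fell by 1.63, and Hnf4a, a proximal tubule transcription factor, fell by 1.28. In VHL-KO/AKI against AKI 1 of 21 was called, Casr, given above, and against VHL-KO 1 rose and 7 fell. In VHL-KO against control and in the interaction 0 genes of these 4 lists were called. Of all genes, 3.88% were called in VHL-KO/AKI against AKI and 13.6% in VHL-KO/AKI against VHL-KO.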

How the data were processed

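The values are the deposited log2 probe set levels of 16 single-colour whole-transcript arrays of mouse kidney, 1 per labelled biological replicate, from 3.34 to 14.71. Partek 6.4 and RMA are named in the submitters' processing notes, without order or settings; the genome build behind the values is not given in the sources used here. Per the labels' protocols, RNA was isolated with RNA-Bee and amplified with an Ambion kit. Of 35556 rows, 21789 had 1 gene symbol, 1621 several and 12146 none, and 19938 genes were tested, by the row with the highest mean. Array medians lay between 5.92 and 6.03, and 0 pairs of arrays were identical. Precision is limited by how many animals a group held.

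Groups came from the titles. The 4 group means were fitted in limma 3.58.1 (R 4.3.3; 12 residual and 2.83 prior degrees of freedom), 2-sided, with Benjamini-Hochberg adjustment over all genes and calls at adjusted p under 0.05. Errors of groups are SD and of differences SE. The interaction is VHL-KO/AKI minus AKI, less VHL-KO minus control. Only the deposited value table was used, so background correction and scan batches were not tested.

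The members and the 17 gene lists (166 entries, 153 measured) were chosen with earlier results of these data known. Named genes are Vhl, the 9 claudins, up to 4 called members of a list with the greatest change, the 3 genes most correlated with each claudin, and the sex-linked genes; a list is described by its counts and median. Alternatives changed 1 choice at a time (rows, filter, scaling, variance, weights, groups fitted, replicate block, sex-linked level, arrays left out). The fit was tested on simulated data. Promoter windows are RefSeq's, and figures were drawn with matplotlib 3.10.9.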

Additional observations from a re-analysis of the deposited data

Results flagged for a closer look

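In groups of 5 arrays, the gap of the highest or lowest array to its nearest neighbour, over the range of the group, was set against Dixon's critical value of 0.71, in 18 groups of claudin values. In Cldn2, VHL-KO/AKI replicate 5 stood at 10.45, with a ratio of 0.974. In Cldn19, VHL-KO/AKI replicate 5 stood at 7.40, with a ratio of 0.809. Chance gives about 1 in 20 groups.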

How the results depend on the processing

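Each result was recomputed under 28 alternatives (27 for the interaction). Of the values of called claudins, 347 kept direction and call, 45 lost the call and 0 changed sign; of the others, 821 stayed, 20 gained a call and 18 changed sign. The count of claudins called stayed 0 throughout in VHL-KO against control. In AKI against control (8 called) it was 0 with the sex-linked level in the fit and 6 to 8 with 1 array left out. In VHL-KO/AKI against AKI (4) it was 8 with array weights, 2 with only the compared groups fitted, and 2 (without AKI 3, AKI 5 or VHL-KO/AKI 1, 2 or 3) to 6 (without VHL-KO/AKI 5) with 1 array left out. In VHL-KO/AKI against VHL-KO (2) it was 0 with the sex-linked level, and 1 to 3 with 1 array left out. In the interaction (0) it was 1 with array weights, and 0 to 1 with 1 array left out (1 without AKI 4). With the replicate number as a block, 1 claudin was called in VHL-KO/AKI against VHL-KO and 7 in AKI against control; no other count changed. The labels do not say that the numbers pair mice. Of same-numbered pairs of deviations, 3 of 20 had r over 0.1 (-0.381 to 0.204), and 18 of 74 other pairs had. Such correlations within small groups cannot decide whether mice were paired. Signs turned only where nothing was called. In VHL-KO against control the sex-linked level gave 0.11 for Cldn1, -0.29 for Cldn4 and -0.065 for Cldn7, quantile scaling gave -0.024 for Cldn4, and leaving out Control 3 and AKI 4 together, chosen after seeing the data, gave -0.020 for Cldn4. With 1 array left out these were -0.26 to 0.14 for Cldn1, -0.020 to 0.15 for Cldn4 and -0.15 to 0.029 for Cldn10. The sex-linked level gave -0.38 for Cldn1 in AKI against control and, in VHL-KO/AKI against VHL-KO, -1.16 for Cldn1, 1.59 for Cldn7, 0.23 for Cldn10 and 0.35 for Cldn16. There Cldn19 was 0.051 with array weights, 0.062 with the replicate block, and -0.37 to 0.13 with 1 array left out. Over all genes the calls ranged from 18 to 319 in VHL-KO against control (105 as reported), 0 to 6924 in AKI against control (5600), 223 to 2868 in VHL-KO/AKI against AKI (774), 0 to 4328 against VHL-KO (2705) and 0 to 885 in the interaction (2). Other than where an alternative leaves out arrays, the cause was not tested. Scaling moved the median of all genes by less than 0.1 (log2).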

Other observations

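Marker lists not described with the claudins had these counts in AKI against control, where 13.2% of all genes were called higher and 14.9% lower. Podocyte genes had 1 of 5 higher and 2 lower, endothelial genes 2 of 7 lower, blood leukocyte genes 2 of 6 higher, adrenal genes 0 of 4 called, adipose genes 3 of 3 higher (median log2 difference 1.14) and injured tubule genes 5 of 6 higher (median 3.99). Every adrenal gene had group means below the lowest array median (5.92). In VHL-KO against control 0 of 7 endothelial genes passed, with a median log2 difference of 0.55, against 0.02 for all genes. An unadjusted p under 0.05 (limma) was reached by 6 of the 7, and by 1664 of the 19938 genes. The endothelial list mean was 8.73 to 8.86 in control and 9.18 to 9.44 in VHL-KO.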
